A study of Mus musculus with 8 samples.

Results

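The Hox genes encode homeodomain transcription factors that give cells along the body axis their positional identity. In mammals they lie in 4 clusters, Hoxa to Hoxd, and genes at the same place in different clusters form 13 paralog groups. The order of the genes along a cluster parallels the order in which they are switched on in time and along the axis, with low paralog numbers rostral and high ones caudal. In the urogenital ridge the genes of paralog group 11 act with Eya1 and Pax2 to switch on Six2 and Gdnf in the mesenchyme that induces the ureteric bud. Genes of paralog group 10 act in the kidney stroma, and those of group 13 in the hindgut, the cloaca and the genital tubercle.

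The members were chosen by symbol, as all genes named Hox with a cluster letter and a paralog number and nothing after it, on probe sets with exactly 1 gene symbol. These were 37 of the 19356 genes measured, with 10 in Hoxa and 9 each in Hoxb, Hoxc and Hoxd. Hoxb8 shared its only probe set with Hoxb7 and was not a member. Each member had 1 probe set, so the value of a gene never depended on a choice between probe sets. No member was removed for a low level. Hoxc12 and Hoxc13 lay below the 25th percentile of the mean signal of all genes.

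The study set Sox11 knockout embryos against wild type embryos at E10.75, about the stage when the ureteric bud leaves the nephric duct. The deleted gene's product, SOX11, is a SoxC transcription factor. RNA of the dissected caudal urogenital ridge was hybridised to 8 arrays, 4 of Sox11 knockout and 4 of wild type, each an independent replicate, with both genotypes on a mixed genetic background. The RNA was depleted of ribosomal RNA and amplified before labelling. No label describes the allele, or says how many embryos went into a replicate.

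Values are log2 signals that the authors made with RMA, and changes are log2 differences, knockout minus wild type. Changes were tested with limma over all 19356 genes with Benjamini-Hochberg adjustment, and a gene was called at an adjusted p under 0.05. Sox11 gave 9.24, 9.13, 8.93 and 9.12 in knockout arrays, against 11.76, 11.81, 11.72 and 11.86 in wild type arrays, with a change of -2.69 (SE 0.08, limma adjusted p = 6.36e-08). No label says which part of Sox11 the allele removes, nor whether these probes read that part. Of 12 markers of the intermediate mesoderm and the nephric duct 11 were measured, and none of them lay below the 25th percentile of signal. In a dissected ridge fewer cells of a type and less RNA per cell cannot be told apart.

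Before the Hox genes are compared, 2 arrays need to be set apart. Shh, a signal of the cloacal and hindgut epithelium, gave 6.52, 8.58, 6.51 and 6.64 in knockout replicates 1 to 4, against 8.50, 6.52, 6.34 and 6.99 in wild type replicates 1 to 4. Foxa1, a transcription factor of endoderm, gave 6.61, 7.91, 6.63 and 6.66 in the knockout arrays, against 7.66, 6.73, 6.50 and 6.90 in the wild type arrays. Both genes were thus high in knockout replicate 2 and wild type replicate 1 and low in the other 6 arrays. The 8 markers of hindgut and cloaca had summed levels between 11.43 and 11.89 (log2) in knockout and between 11.31 and 11.80 in wild type arrays, with Cdx2 and Foxa2 at 5.89 to 6.54 throughout. Krt8 and Cldn6 were also highest of their groups in the same 2 arrays, and Epcam and Foxa2 in wild type replicate 1 only. In knockout replicate 2 Foxa2 was lowest of all arrays at 6.06, and Epcam (8.93) lay below replicates 3 and 4 (9.18 and 9.03). Sox17 was highest in knockout replicate 1 and wild type replicate 2 (7.67 and 7.66). Some results whose direction rests on knockout replicate 2 or wild type replicate 1 are given with and without them.

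A different set of arrays stood apart in genes of the hindlimb field. Tbx4, a gene of hindlimb outgrowth, gave 8.39, 9.16, 8.30 and 6.99 in knockout arrays, against 6.87, 8.43, 8.32 and 7.08 in wild type arrays. It was low in knockout replicate 4 and wild type replicates 1 and 4, and Pitx1, its upstream factor, was low in the same 3 arrays at 6.77, 6.61 and 6.65. Y-linked genes gave signal in knockout replicates 3 and 4 and in wild type replicate 1. The part of cloacal, limb or embryo sex differences in the Hox values was not tested beyond the values below.

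None of the 37 Hox genes differed between the genotypes past limma's threshold, against 1.44% of all genes (1.08% lower and 0.362% higher in knockout). An unadjusted p under 0.05 was found for 5 of the 37 members (13.5%), where 16.7% of all genes had one. All 5 were lower in knockout (9.38% of all genes were lower at that p) and none was higher (7.29% of all genes). They were Hoxd12, Hoxb9, Hoxb1, Hoxa2 and Hoxd11. In 2 of the 37 members, Hoxb9 and Hoxd12, the knockout and wild type arrays did not overlap (5.41%), against 10.5% of all genes. Both were lower in knockout, where 6.47% of all genes were lower without overlap and 4.04% higher. Of the shares in either direction, both were below those of all genes, while the share lower at that p was above.

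Over all members 18 were below 0 and 19 above, with a median change of 0.0025 and a range from -0.56 to 0.20. The median over all genes was -0.000496. Of the 37 changes 30 were smaller than 0.2 in either direction. The error of a Hox gene was larger than usual, with a median SE of 0.118 against 0.0851 over all genes. The widest 95% interval was that of Hoxb13, with an upper end of 0.81 and an SE of 0.41. The median size of a change was 0.114 over the members and 0.0958 over all genes.

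**Figure D1:**
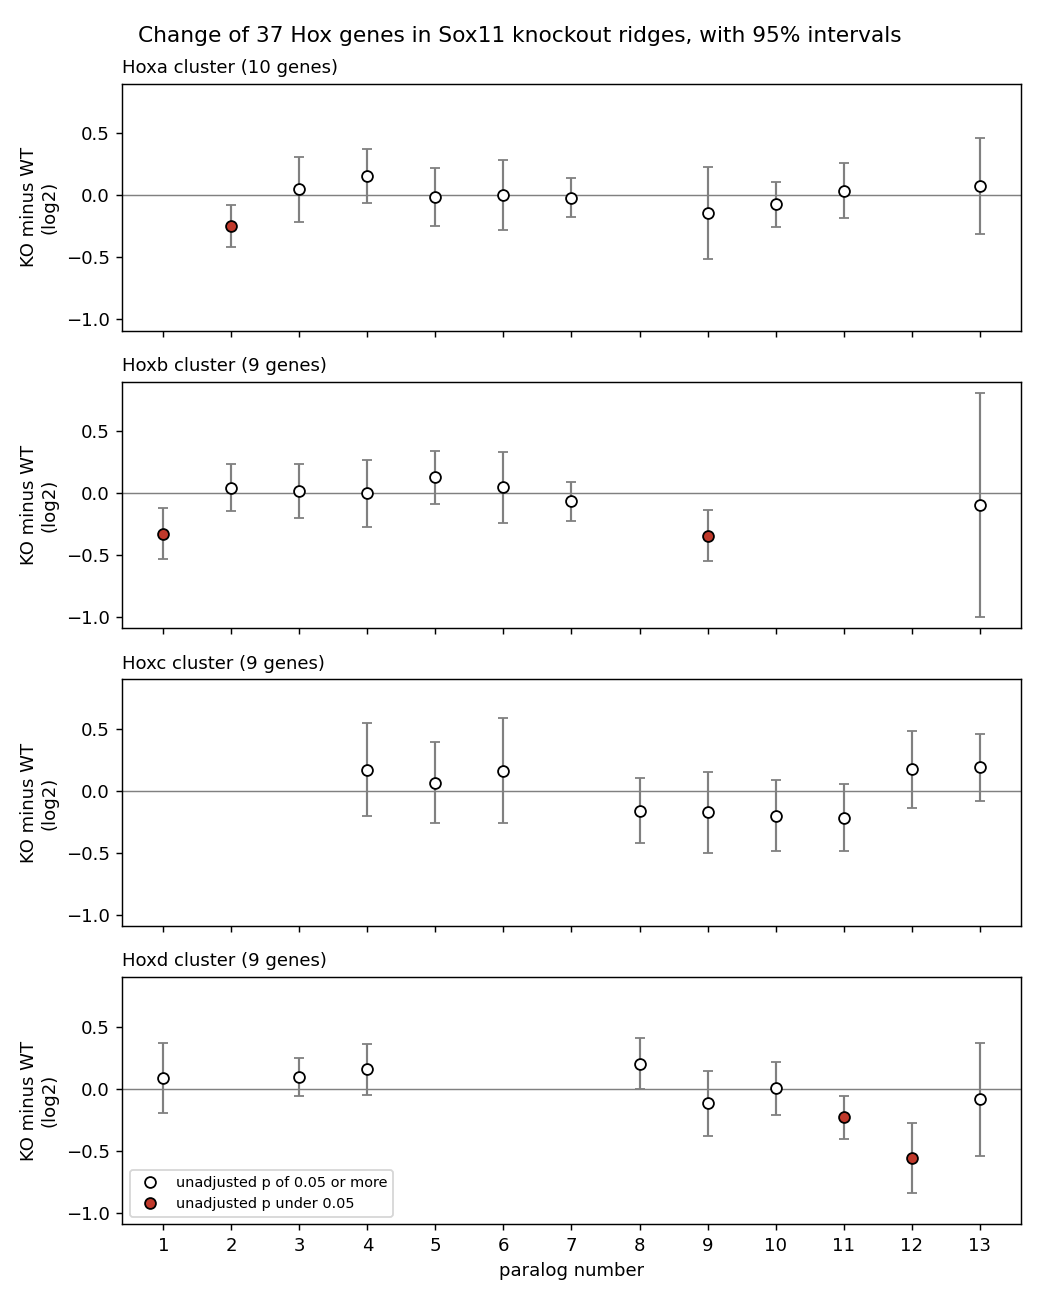
Change of each Hox gene (knockout minus wild type, log2) with its 95% interval from limma, by paralog number, in 1 panel for each cluster. Filled points mark the 5 genes with an unadjusted p under 0.05, all of them below 0, and Hoxd12 at -0.56 is the lowest.

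Hoxd12 is a gene of the caudal end of the Hoxd cluster with known roles in the distal limb. It gave 8.79, 9.14, 8.83 and 9.02 in knockout replicates 1 to 4, against 9.86, 9.36, 9.50 and 9.29 in wild type replicates 1 to 4. The genotypes did not overlap, and wild type replicate 1 was the highest. The means were 8.95 ± 0.16 in knockout and 9.50 ± 0.25 in wild type (SD, n = 4 each). Hoxd12 was thus at -0.56 (SE 0.13), or 1.47-fold lower, and missed the threshold (limma adjusted p = 0.0633). Without wild type replicate 1 the change was -0.44 (limma adjusted p = 0.0823), and without that array and knockout replicate 2 it was -0.50 (limma adjusted p = 0.0619). Hoxd12 was past the threshold under 4 of 21 alternatives: among genes above the median level, with trended and robust moderation, with array weights, and with the hindgut and cloaca markers as a covariate, which was chosen after seeing the data (limma adjusted p between 0.0177 and 0.0450).

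Hoxb9 takes part in patterning the thoracic skeleton and, with its paralogs, the mammary gland. It gave 9.77, 10.17, 10.01 and 9.80 in knockout arrays, against 10.27, 10.34, 10.19 and 10.29 in wild type arrays. The gap between the genotypes was narrow, since knockout replicate 2 lay just under wild type replicate 3. The change was -0.34 (SE 0.09), with a limma adjusted p of 0.106, and it stayed between -0.42 and -0.29 when any 1 array was left out.

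Hoxb1, which specifies a hindbrain segment, gave 8.22, 8.43, 8.07 and 8.07 in knockout arrays, against 8.56, 8.40, 8.50 and 8.63 in wild type arrays. The groups met at knockout replicate 2 and wild type replicate 2, and the change was -0.33 (SE 0.09, limma adjusted p = 0.114). Hoxa2, the selector gene of the second pharyngeal arch, gave 8.29, 8.19, 8.41 and 8.18 in knockout arrays, against 8.39, 8.55, 8.53 and 8.59 in wild type arrays. Knockout replicate 3 reached into the wild type range, and the change was -0.25 (SE 0.08, limma adjusted p = 0.144). Both act far rostral to the kidney in the embryo as known from their mutants, and the values used here carry no detection call to say whether these signals lay above background.

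Hoxd11, a gene of the kidney-inducing paralog group 11, gave 10.37, 10.62, 10.43 and 10.34 in knockout arrays, against 10.59, 10.69 and 10.64 in wild type replicates 1, 3 and 4 and a still higher value in replicate 2. Its means were 10.44 ± 0.13 in knockout and 10.67 ± 0.06 in wild type (SD, n = 4 each). Knockout replicate 2 lay above wild type replicate 1, and the other knockout arrays lay below all 4 wild type arrays. The change was -0.23 (SE 0.08), and its limma adjusted p was 0.183. With both arrays of high Shh left out, the changes were -0.31 for Hoxd11, -0.42 for Hoxb9, -0.39 for Hoxb1 and -0.26 for Hoxa2, with limma adjusted p-values between 0.0889 and 0.173. These 5 genes had an unadjusted p under 0.05 in all 21 alternatives run. The alternatives refit the same arrays by which the 5 were picked, so this is no independent support.

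**Figure D2:**
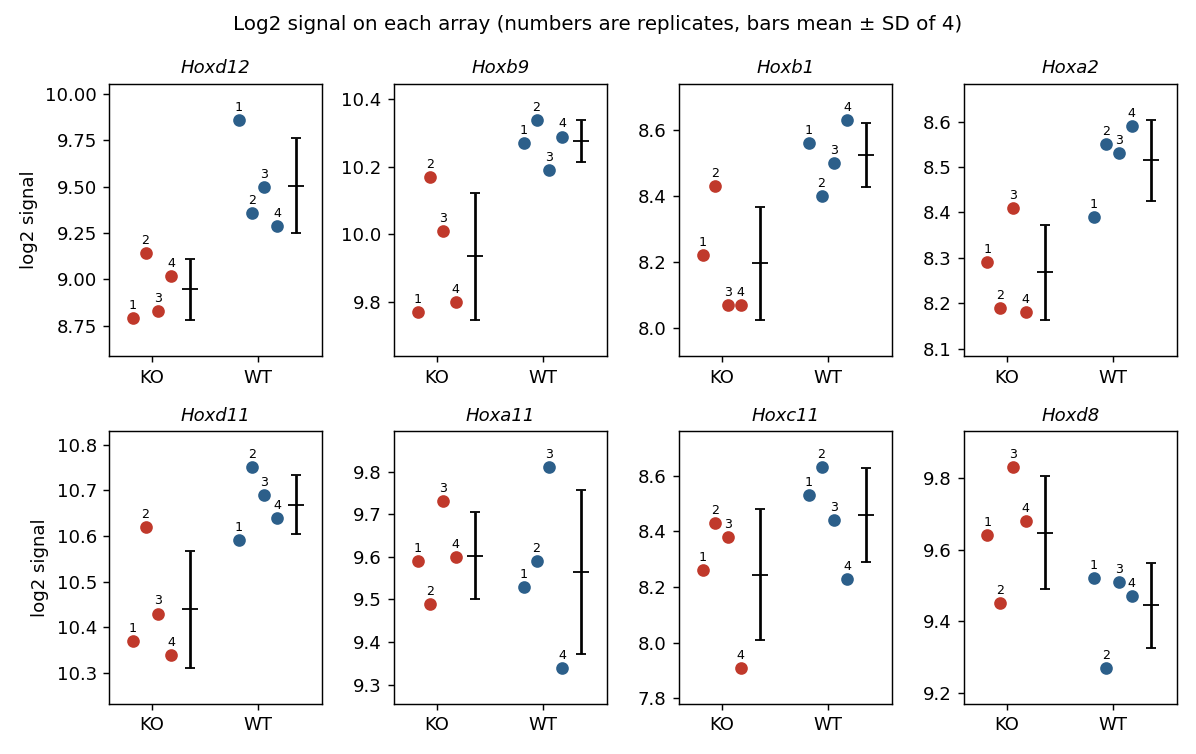
Log2 signal of 8 Hox genes on each array, knockout (KO, red) left of wild type (WT, blue), with the replicate number beside each point and the mean ± SD of 4 arrays as a bar. Hoxd12 and Hoxb9 have no overlap between genotypes, while the points of Hoxa11, a paralog of Hoxd11, overlap between the genotypes.

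The promoters of the members with an unadjusted p under 0.05 are shown so that the letters at their starts can be compared with those of all promoters. RefSeq's promoter table for GRCm38.p6 (250 bases before to 50 after a start) matched 21 of the 37 members. Hoxb9 was not among them, and Hoxd11 had more than 1 start, of which the one with a motif is printed. Capitals mark the letters TGATNNAT on either strand, a site that HOX and PBX proteins bind together.
Hoxd12, chr2:74674763-74675062, plus strand: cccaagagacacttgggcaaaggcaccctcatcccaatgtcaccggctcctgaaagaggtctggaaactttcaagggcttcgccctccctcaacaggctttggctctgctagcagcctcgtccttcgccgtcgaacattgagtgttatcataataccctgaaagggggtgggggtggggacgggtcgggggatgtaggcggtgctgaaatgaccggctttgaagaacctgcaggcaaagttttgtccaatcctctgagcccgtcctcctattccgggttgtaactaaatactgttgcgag
Hoxb1, chr11:96365508-96365807, plus strand: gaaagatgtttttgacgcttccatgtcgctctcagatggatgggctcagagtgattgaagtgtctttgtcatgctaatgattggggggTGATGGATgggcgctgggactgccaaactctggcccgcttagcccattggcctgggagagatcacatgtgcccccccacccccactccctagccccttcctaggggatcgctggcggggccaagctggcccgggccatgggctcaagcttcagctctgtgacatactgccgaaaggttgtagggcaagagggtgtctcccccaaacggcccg
Hoxa2, chr6:52164782-52165081, minus strand: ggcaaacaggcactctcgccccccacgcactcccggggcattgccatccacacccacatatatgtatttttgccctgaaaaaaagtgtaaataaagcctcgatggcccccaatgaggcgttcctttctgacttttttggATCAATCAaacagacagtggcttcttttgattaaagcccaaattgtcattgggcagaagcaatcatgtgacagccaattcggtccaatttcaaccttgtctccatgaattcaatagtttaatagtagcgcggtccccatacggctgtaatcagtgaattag
Hoxd11, chr2:74682073-74682372, plus strand: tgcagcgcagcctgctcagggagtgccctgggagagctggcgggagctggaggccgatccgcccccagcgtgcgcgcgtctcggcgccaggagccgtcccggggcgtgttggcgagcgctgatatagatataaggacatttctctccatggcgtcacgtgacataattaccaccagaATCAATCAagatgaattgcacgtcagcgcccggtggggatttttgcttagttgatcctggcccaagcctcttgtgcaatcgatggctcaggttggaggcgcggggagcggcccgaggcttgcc

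The letters TGATNNAT stood in 4 of the 24 Hox promoters in the table (16.7%), those of Hoxa2, Hoxb1, Hoxd11 and Hoxb8, against 8.85% of all 32851 promoters of that length. The Hoxd12 promoter, that of the member with the lowest p, held none. The SOX-type letters AACAAT stood in 0 of 24 Hox promoters, against 3521 of the 32851 promoters, and AACAAAG in 1 of 24 (Hoxd4), against 5.85%. The TATA letters TATAAA stood in 4 of 24 (16.7%), against 13.6%, and the CDX-type letters TTTATNG in 2 of 24 (8.33%), against 10.9%. Both strands were searched for each, and these letter counts describe the windows and do not show binding. Hox promoters were rich in CpG, with a median of 14.5 against 7 in all promoters.

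Among the genes of paralog numbers 1 to 4, which mark the hindbrain and neck, 3 of 11 were below 0 and 8 above, with a median change of 0.05. Hoxd1 (0.09), Hoxb2 (0.04), Hoxa3 (0.05), Hoxb3 (0.02) and Hoxd3 (0.10) had limma adjusted p-values between 0.495 and 0.943. The genes of group 4, which act at the border of hindbrain and spinal cord, were at 0.15 for Hoxa4, -0.00076 for Hoxb4, 0.17 for Hoxc4 and 0.16 for Hoxd4. Their intervals all held 0, and their limma adjusted p-values ran from 0.423 to 0.998. Hoxd4 gave 10.42 ± 0.09 in knockout and 10.26 ± 0.18 in wild type (SD, n = 4 each). The spans of Hoxd3 and Hoxd4, of Hoxb3 and Hoxb4, and of Hoxa3 and Hoxa4 overlap in RefSeq, so a probe set of either gene of a pair may read transcripts of both. The span of Hoxa3 also overlaps those of Hoxa5 and Hoxa6, with the same limit.

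Among paralog numbers 5 to 9, the genes of the trunk, 8 of 14 were below 0 and 6 above, with a median of -0.02. Group 5, in which Hoxa5 is needed for the lung, was at -0.01 for Hoxa5, 0.13 for Hoxb5 and 0.07 for Hoxc5. Group 6 was at 0.0025 for Hoxa6, 0.05 for Hoxb6 and 0.16 for Hoxc6. Hoxb7, whose regulatory sequence is widely used to drive transgenes in the nephric duct, was at -0.07 (SE 0.07, limma adjusted p = 0.671), with 7.95 ± 0.11 in knockout and 8.01 ± 0.04 in wild type (SD, n = 4 each). Hoxa7 was at -0.02 (SE 0.07), with a 95% interval from -0.17 to 0.14, and that of Hoxb7 ran from -0.22 to 0.09. The probe set that Hoxb8 and Hoxb7 share gave 8.85 ± 0.09 in knockout and 8.87 ± 0.14 in wild type (SD, n = 4 each) and was not tested.

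Hoxd8 came nearest to a higher level in knockout. It gave 9.64, 9.45, 9.83 and 9.68 in knockout arrays, against 9.52, 9.27, 9.51 and 9.47 in wild type arrays. Only knockout replicate 2 lay inside the wild type range, and the change was 0.20 (SE 0.09, limma adjusted p = 0.305). Hoxc8, its paralog, was at -0.16 (SE 0.12, limma adjusted p = 0.522). The genes of group 9 were all below 0, with Hoxb9 as above, Hoxa9 at -0.15, Hoxc9 at -0.17 and Hoxd9 at -0.11, and the last 3 had limma adjusted p-values between 0.589 and 0.694. Hoxa9 was at 0 without wild type replicate 4 or at -0.32 without wild type replicate 3. Hoxd9 was at 0 without knockout replicate 2, its lowest array at 8.34.

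Of paralog numbers 10 to 13, the genes of the lumbar, sacral and caudal body, 7 of 12 were below 0 and 5 above, with a median of -0.08. The direction of this median rested on 1 array, since it was 0.039 without wild type replicate 1 and 0.031 without that array and knockout replicate 2. In group 10, which patterns the lumbar axis and acts in renal stroma, Hoxa10 was at -0.07, Hoxc10 at -0.20 and Hoxd10 at 0.00468, with limma adjusted p-values between 0.463 and 0.986. Hoxd10 had 11.69 ± 0.08 in knockout and 11.69 ± 0.19 in wild type (SD, n = 4 each). Its 95% interval ran from -0.21 to 0.22. Its span overlaps that of Hoxd11 in RefSeq, so their probe sets may share transcripts.

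The 3 genes of group 11 act redundantly in the mesenchyme that induces the ureteric bud. Hoxa11 gave 9.59, 9.49, 9.73 and 9.60 in knockout arrays, against 9.53, 9.59, 9.81 and 9.34 in wild type arrays, and the 4 knockout values all lay within the wild type range. Hoxc11 gave 8.26, 8.43, 8.38 and 7.91 in knockout arrays, against 8.53, 8.63, 8.44 and 8.23 in wild type arrays, where knockout replicate 4 was lowest. Beside Hoxd11 at -0.23, the change was 0.04 (SE 0.10) for Hoxa11 and -0.21 (SE 0.12) for Hoxc11. None of the 3 was called, and the limma adjusted p-values were 0.876 for Hoxa11 and 0.409 for Hoxc11. Whether the 3 paralogs differ from each other was not tested.

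Hoxc12 gave 5.76, 5.95, 5.83 and 6.10 in knockout arrays, against 6.18, 5.47, 5.64 and 5.65 in wild type arrays. Wild type replicate 1 was the highest of all 8 arrays here. The change was 0.18 (limma adjusted p = 0.555) on all arrays and 0.32 without that array (limma adjusted p = 0.150).

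In group 13, the genes of the hindgut, cloaca, genital tubercle and tail, the arrays differed more within a genotype than between genotypes. Hoxb13 gave 6.16, 6.80, 6.28 and 6.38 in knockout arrays, against 8.04, 6.16, 5.95 and 5.85 in wild type arrays. Wild type replicate 1 stood far above the others, and knockout replicate 2 was the highest of its group. Hoxd13, whose mutants have defects of digits and genitalia, gave 9.75, 10.14, 9.59 and 9.61 in knockout arrays, against 10.44, 9.99, 9.54 and 9.46 in wild type arrays, and the same 2 arrays were the highest of their groups.

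Hoxa13, its partner in the limb and the cloaca, gave 8.69, 8.87, 8.18 and 8.40 in knockout arrays, against 8.71, 8.63, 8.47 and 8.01 in wild type arrays. Here too knockout replicate 2 and wild type replicate 1 led their groups. Hoxc13, a gene of hair and nail, gave 6.11, 5.92, 5.78 and 5.62 in knockout arrays, against 5.74, 5.61, 5.43 and 5.89 in wild type arrays, and did not share that order. The mean of the 4 genes, each taken as its deviation from its own mean over the 8 arrays, was 0.046, 0.302, -0.172 and -0.130 in knockout arrays, against 0.602, -0.033, -0.284 and -0.330 in wild type arrays. The 2 arrays with the highest values were those with high Shh and Foxa1.

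The changes in group 13 were 0.08 for Hoxa13, -0.10 for Hoxb13, 0.19 for Hoxc13 and -0.08 for Hoxd13, with limma adjusted p-values between 0.452 and 0.927. The direction of Hoxb13 rested on 1 array: without wild type replicate 1 it was at 0.42 (limma adjusted p = 0.202), and without that array and knockout replicate 2 at 0.29 (limma adjusted p = 0.220). Hoxd13 was at 0.11 without wild type replicate 1 and at -0.01 without both. The direction of Hoxa13 turned without knockout replicate 2, where it was at -0.04. With wild type replicate 1 left out, 8 of 37 members had an unadjusted p under 0.05, against 16.8% of all genes. Beyond the 5 members above, these were Hoxb13 and Hoxc12 above 0 and Hoxc8 below 0.

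**Figure D3:**
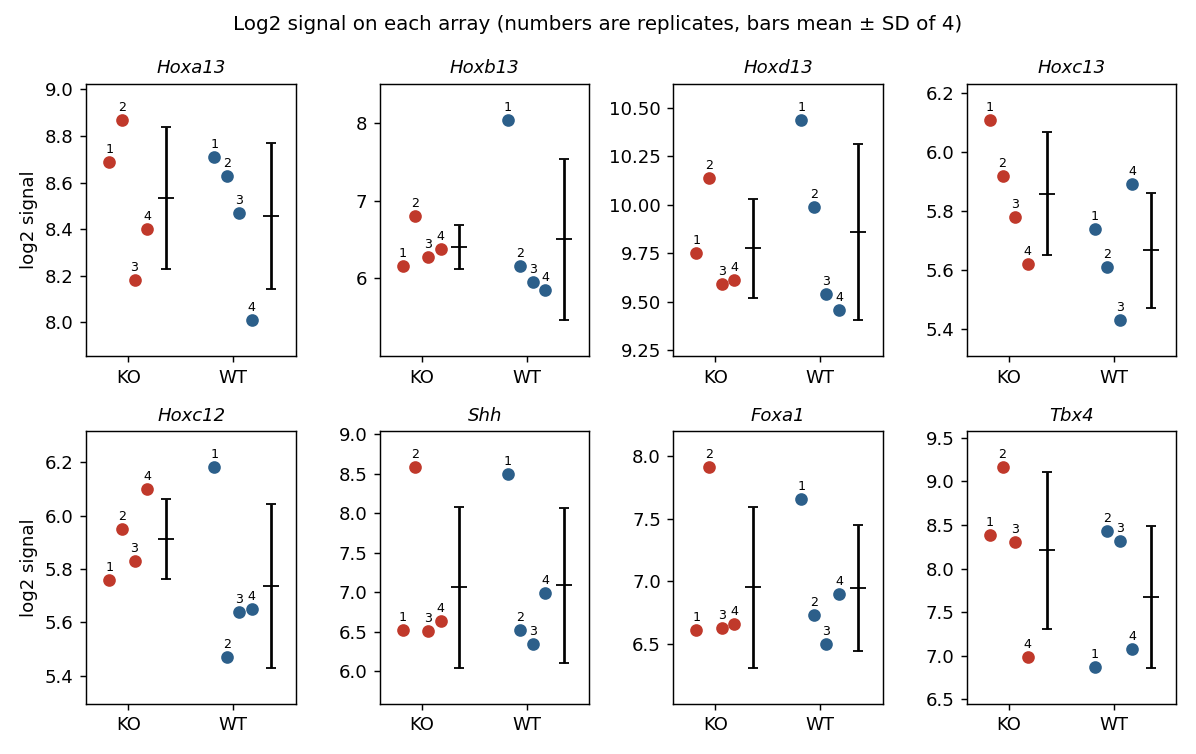
Log2 signal of the group 13 genes, Hoxc12, the endoderm genes Shh and Foxa1 and the hindlimb gene Tbx4 on each array, knockout (KO, red) left of wild type (WT, blue), with replicate numbers and the mean ± SD of 4 arrays as a bar. Knockout replicate 2 and wild type replicate 1 are the highest of their groups in Hoxa13, Hoxb13, Hoxd13, Shh and Foxa1.

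By cluster the medians were -0.00599 in Hoxa, -0.00076 in Hoxb, 0.07 in Hoxc and 0.00468 in Hoxd. That of Hoxc was -0.159 among genes above the 25th percentile of signal, which leaves out Hoxc12 and Hoxc13, and -0.055 without knockout replicate 3. The other 3 medians also lay on either side of 0 when 1 array at a time was left out. Within Hoxd the 3 genes of numbers 1 to 4 were all above 0, with a median of 0.10, and of the 4 genes of numbers 10 to 13, 3 were below 0, with a median of -0.16. Hoxc had the same turn over part of its length, with Hoxc4, Hoxc5 and Hoxc6 above 0 and Hoxc8 to Hoxc11 below 0, but with Hoxc12 and Hoxc13 above 0. In Hoxb the genes from Hoxb7 on were below 0, while Hoxb2, Hoxb3, Hoxb5 and Hoxb6 were above 0, Hoxb4 was at -0.00076 and Hoxb1 was below 0. In Hoxa the genes of numbers 10 to 13 had a median of 0.04. No member passed the threshold, and the genes of a cluster share the same 8 arrays, so these orders are a description only.

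Within a genotype the Hox genes moved in blocks from array to array. Their median SD within a genotype was 0.196, against 0.121 over all genes. In numbers 5 to 9, wild type replicate 4 was the highest wild type array in 10 of 14 genes and replicate 3 the lowest in 7. In numbers 10 to 13 the order turned, and wild type replicate 4 was the lowest in 8 of 12 genes and replicate 1 the highest in 6. Among knockout arrays replicate 3 was the highest in 8 of 11 genes of numbers 1 to 4 and in 7 of 14 of numbers 5 to 9. The mean deviation over numbers 5 to 9 was -0.126, -0.052, 0.104 and 0.014 in knockout arrays, against -0.008, -0.009, -0.139 and 0.215 in wild type arrays.

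**Figure D4:**
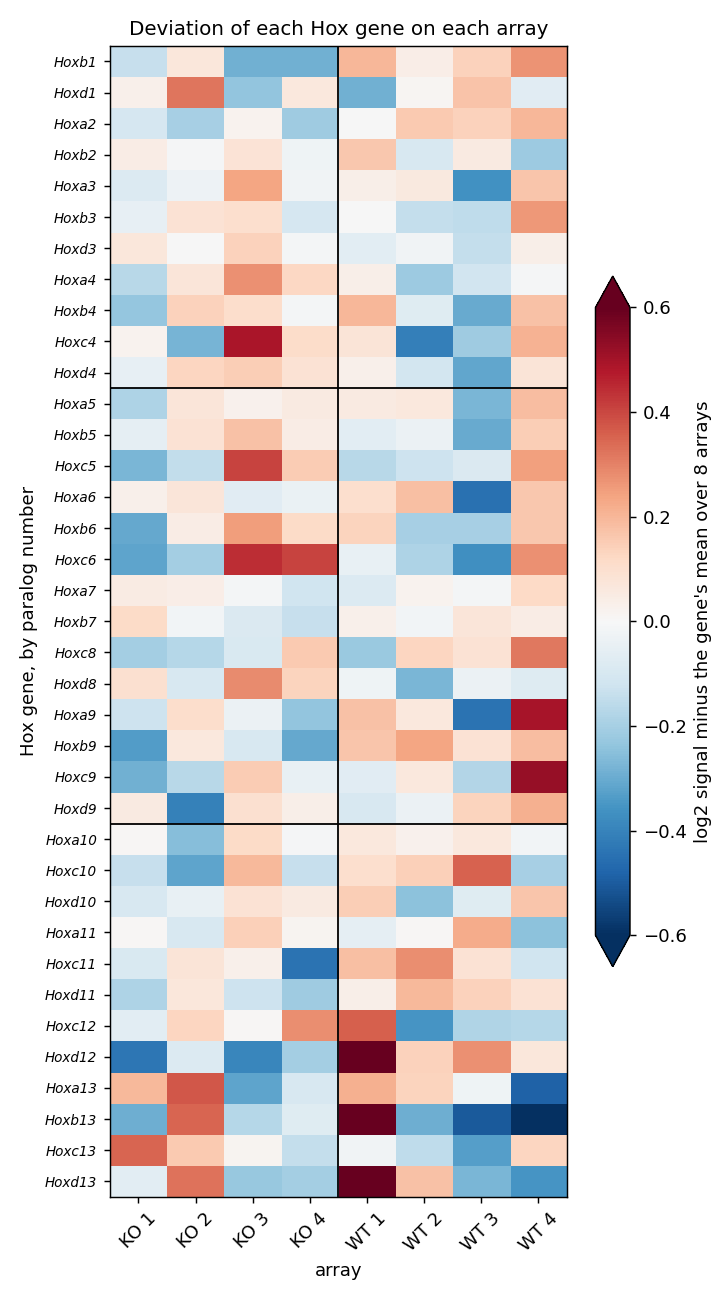
Deviation of each of the 37 Hox genes from its own mean over the 8 arrays (log2, colour, ends of the scale at 0.6 in either direction), with genes from paralog number 1 at the top to 13 at the bottom, knockout (KO) arrays left and wild type (WT) arrays right, and lines after numbers 4 and 9. Wild type replicate 4 is high in the middle block and low in Hoxa13, Hoxb13 and Hoxd13, while wild type replicate 3 is low in the middle block.

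The Hox clusters also hold miRNA genes, which are given because 3 of their 6 hairpin genes were higher in knockout at an unadjusted p under 0.05, where 7.29% of all genes were. The mature sequences are from RefSeq (GRCm38.p6), 5′ to 3′, with the seed, bases 2 to 8, in capitals.
miR-10a-5p, within Hoxb3: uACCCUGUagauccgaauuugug
miR-10b-5p, within Hoxd3 and Hoxd4: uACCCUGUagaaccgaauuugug
miR-196a-5p, beside Hoxb9 and Hoxc10: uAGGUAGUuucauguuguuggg
miR-196b-5p, beside Hoxa10: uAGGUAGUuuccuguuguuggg
miR-615-3p, within Hoxc5: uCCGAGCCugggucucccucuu

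The miR-10 sequences share the seed ACCCUGU and differ by U12A (counted from the 5′ end, miR-10a base first), and the miR-196 sequences share the seed AGGUAGU and differ by A12C (miR-196a base first). Known targets of both families include Hox transcripts. Mir10b gave 6.87, 6.78, 6.98 and 6.80 in knockout arrays, against 6.65, 6.61, 6.38 and 6.50 in wild type arrays. Its groups did not overlap, and the change was 0.32 (SE 0.08, limma adjusted p = 0.0779). Mir10a was at 0.33 (limma adjusted p = 0.212) and Mir615 at 0.36 (limma adjusted p = 0.196), both with overlapping groups.

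Mir196b (0.22), Mir196a-1 (-0.03) and Mir196a-2 (-0.08) had limma adjusted p-values between 0.614 and 0.940. Mir10a lies within the span of Hoxb3, Mir10b within those of Hoxd3 and Hoxd4, and Mir615 within that of Hoxc5, so a signal of the hairpin cannot be told apart from that of its host transcript. The hosts were at 0.02, 0.10, 0.16 and 0.07. Mature miRNAs were not measured separately here.

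Of 25 measured genes in or beside the clusters other than the members none was called, and 4 were higher at an unadjusted p under 0.05, against 7.29% of all genes (these 3 hairpins and Jazf1 at 0.25). Evx1 (0.04) and Evx2 (-0.14), homeobox genes at the caudal ends of Hoxa and Hoxd, were not past the threshold. Evx2 gave 6.96, 7.06, 6.86 and 6.82 in knockout arrays, against 7.53, 6.97, 6.89 and 6.86 in wild type arrays, with wild type replicate 1 again the highest. Hottip, a long non-coding RNA beside Hoxa13, was at -0.10.

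Among genes that keep Hox genes silent or active, Cbx2 fell. It encodes a chromodomain subunit of the Polycomb repressive complex 1, and its loss in mice causes shifts of vertebral identity. Cbx2 gave 10.16, 10.37, 10.29 and 10.20 in knockout arrays, against 10.68 to 10.77 in wild type arrays. All knockout arrays lay well below all wild type arrays, and the change was -0.48 (SE 0.07), or 1.40-fold lower (limma adjusted p = 0.00648). It passed the threshold on all arrays and in each of the 21 alternatives.

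The other 19 measured genes of this list of Polycomb, Trithorax and related genes were not called, where 1.08% of all genes were called lower. Ezh2, the histone methyltransferase of the Polycomb repressive complex 2, was at -0.20 (limma adjusted p = 0.157) and Phc1, of the Polycomb repressive complex 1, at -0.19 (limma adjusted p = 0.222). In all, 16 of the 20 were below 0, with a median of -0.07, where 50.1% of all genes were below 0.

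The 8 measured cofactors of the MEIS, PBX and PKNOX families, which bind DNA together with HOX proteins, had a median of 0.02 and none was called. Meis3 was at -0.23 (limma adjusted p = 0.264), Pbx3 at 0.13 and Meis1 at -0.06. Of 18 measured upstream regulators, among them CDX factors, retinoic acid receptors and GDF11 signalling, none was called. In this list 14 were below 0, against 50.1% of all genes, and the median was -0.08. Lin28a, which acts on the timing of trunk development, was at -0.32 (limma adjusted p = 0.173), Smad3 at -0.18 and Acvr2b, a receptor for GDF11, at -0.18.

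Of 7 partners and targets of the group 11 genes Six2 fell and 6 were not called, with a median of -0.20. Over all genes 1.08% were called lower. Six2, a factor of nephron progenitors and a direct target of the HOX11 complex, gave 9.81, 9.98, 9.94 and 10.16 in knockout arrays, against 10.24, 10.46, 10.50 and 10.61 in wild type arrays. The highest knockout array lay below the lowest wild type array, and the change was -0.48 (SE 0.10, limma adjusted p = 0.0437). The call was held in 9 of 22 settings, all arrays included, with limma adjusted p-values from 0.0197 to 0.134. Eya1, a partner of HOX11 proteins, was at -0.28 (limma adjusted p = 0.0609), Sall1 at -0.21 and Pax2 at -0.20. Gdnf (-0.06) and Itga8 (0.02), other targets of the complex, had limma adjusted p-values of 0.763 and 0.940. Osr1, also of this list, was at 0.12 (limma adjusted p = 0.604).

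**Figure D5:**
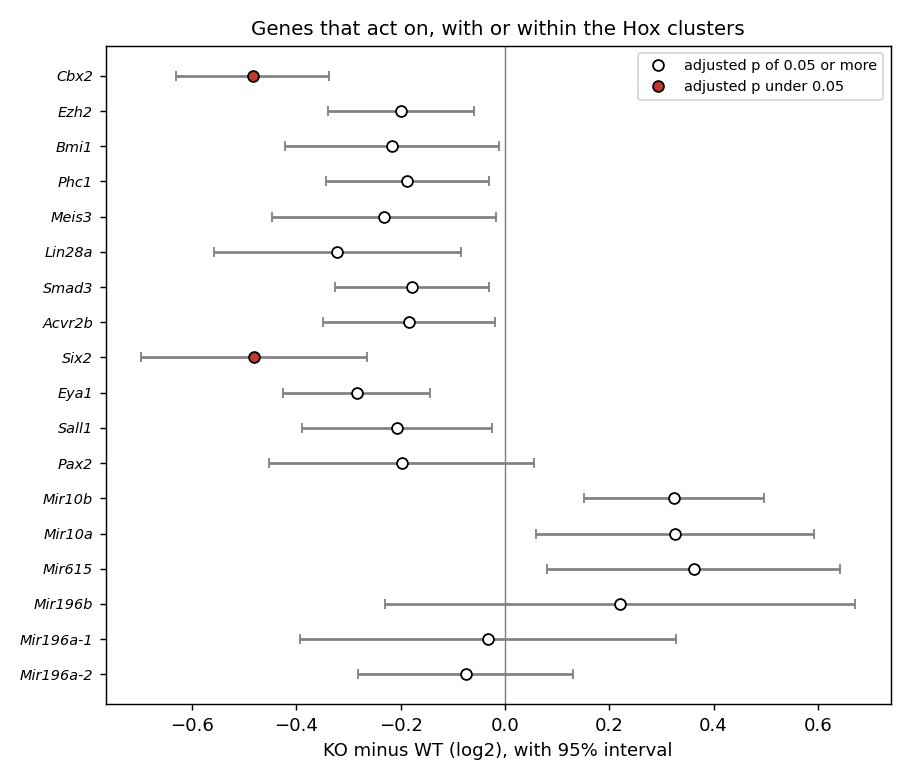
Change (knockout minus wild type, log2) with its 95% interval for genes that regulate the Hox clusters or bind with their proteins, partners and targets of group 11, and hairpin genes inside the clusters. Cbx2 and Six2, both at -0.48, are past the threshold, and the hairpins Mir10a, Mir10b and Mir615 lie at 0.32 to 0.36.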

How the data were processed

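Gene expression was measured on 8 arrays, 4 of Sox11 knockout and 4 of wild type caudal urogenital ridge. The deposited table holds a log2 signal for each of 27478 probe sets, made by the authors with RMA, per the submitters' processing notes, which also name Partek. No source used here gives versions, settings or a genome build, and the log2 scale was inferred from the range of the values (4.30 to 14.62, array medians 7.29 to 7.31). RMA equalises the arrays, so a shift of all transcripts together cannot be seen. The small number of arrays limits the precision.

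Probe sets with exactly 1 symbol in the platform's annotation (21103; 1531 had several and 4844 none) were kept, and for each gene the one with the highest mean over the 8 arrays, which gave 19356 genes. Symbols were checked through the gene identifiers of RefSeq's table of GRCm38.p6, where 80 had no entry and 0 changed. Names, neighbours and overlaps of genes were read from that table. The model held genotype alone and was fitted in R 4.3.3 by limma 3.58.1 with untrended eBayes moderation, and two-sided p-values were adjusted over all genes after Benjamini and Hochberg (threshold 0.05). The test was checked on simulated data. The Hox genes and the lists were chosen with earlier results of these data known. All 37 members are named, and values on every array are given for those with an unadjusted p under 0.05, for paralog group 11 and for the highest number of each cluster, except that the wild type values of Hoxd11 are given for 3 of 4 arrays with their mean. Other genes with such values, among them Hoxd8, Hoxc12, Shh, Foxa1, Tbx4, Pitx1 and Evx2, and list genes named beyond the 3 of lowest p, such as Jazf1, Pax2 and Gdnf, were chosen after their values were seen, as were the 2 added alternatives. From the lists of cofactors, upstream regulators, chromatin genes, cluster genes and group 11 partners up to 3 genes of lowest p and any past the threshold are named. From the marker lists of the tissue and of other cells those past the threshold are named, with some others that were not called. The 8 hindgut and cloaca markers and the other marker lists were described by counts, medians and summed levels. Alternatives were other normalizations, filters, probe set rules, moderation or array weights, a block for replicate number, a covariate for Y-linked signal, and fits without each array. Replicate numbers run from 1 to 4 in each genotype, and no label ties equal numbers to 1 litter or day. Promoter and miRNA sequences are RefSeq's (GRCm38.p6). Figures were drawn with matplotlib 3.10.9.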

Additional observations from a re-analysis of the deposited data

Results flagged for a closer look

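Hoxb13 gave 8.04 in wild type replicate 1, far above the other wild type arrays (5.85 to 6.16), by Dixon's test for a group of 4. In the same test Hoxa6 was low in wild type replicate 3, at 9.94 against 10.49 to 10.57 in the other 3. Hoxa5 was low in knockout replicate 1, at 10.36 against 10.57 to 10.62, and Hoxd9 in knockout replicate 2, at 8.34 against 8.78 to 8.84. These were 4 of 76 groups tested (37 Hox genes and Sox11 in each genotype), and chance flags about 1 in 20.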

How the results depend on the processing

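None of the 37 Hox genes was called under 17 of 21 alternatives, the 8 that left out 1 array included. The count was 1, Hoxd12, among genes above the median, with trended and robust moderation, with array weights and with the hindgut and cloaca covariate, and the cause was not tested. The members at an unadjusted p under 0.05 numbered 5 to 8 when 1 array was left out, with 8 without wild type replicate 1, and 8 without that array and knockout replicate 2. Of all genes, 12.3% to 18.5% had such a p when 1 array was left out. The share was 16.8% without wild type replicate 1 and 17.2% without that array and knockout replicate 2. The median of Hoxc was -0.159 among genes above the 25th percentile and among genes above the median, where Hoxc12 and Hoxc13 drop out, and -0.055 to 0.147 when 1 array was left out; that of Hoxd was then -0.04 to 0.06 and that of numbers 10 to 13 -0.153 to 0.039. Calls over all genes numbered 279 on all arrays, 55 without moderation, 107 to 243 without 1 array and at most 365.

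Correlations of same-numbered deviations ran from -0.165 to 0.0897, and those of different numbers from -0.235 to 0.239. These correlations cannot show whether replicate numbers pair the arrays. With the number as a replicate block 0 members were called and 7 had an unadjusted p under 0.05, against 16.3% of all genes. Hoxd12 was then at an adjusted p of 0.136 by limma.

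Small changes turned their sign. Median centring gave Hoxa5 0.02, Hoxa7 0.01 and Hoxb4 0.03, and quantile normalization gave 0.02, 0.03 and 0.05 for the same genes. Array weights gave Hoxa5 0.02, Hoxa13 -0.02 and Hoxb4 0.03. The Y-linked covariate gave Hoxa7 0.01, Hoxb6 -0.01 and Hoxd10 -0.03, and the hindgut covariate gave Hoxa6 -0.02 and Hoxd10 -0.01. Without wild type replicate 1 and knockout replicate 2, Hoxa10 was at 0.01, Hoxb3 at -0.01, Hoxb4 at 0.02, Hoxb13 at 0.29 and Hoxd1 at -0.09. Without knockout replicate 2 alone, Hoxa6 was at -0.02, Hoxa10 at 0, Hoxb3 at -0.01 and Hoxd1 at -0.01. Leaving out 1 array gave the ranges Hoxa3 -0.07 to 0.11, Hoxa5 -0.11 to 0.05, Hoxa6 -0.15 to 0.06, Hoxa7 -0.05 to 0.02, Hoxa10 -0.12 to 0, Hoxa11 -0.04 to 0.12, Hoxa13 -0.07 to 0.19, Hoxb2 -0.02 to 0.11, Hoxb3 -0.03 to 0.11, Hoxb4 -0.1 to 0.08, Hoxb6 -0.03 to 0.16, Hoxb13 -0.31 to 0.42, Hoxc5 -0.05 to 0.17, Hoxd1 -0.01 to 0.18, Hoxd9 -0.17 to 0, Hoxd10 -0.07 to 0.06, Hoxd13 -0.22 to 0.11. The cause was not tested, and 4 arrays a genotype limit the precision of all of these.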

Other observations

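Single markers of other cells that a dissected ridge can hold were called in 2 lists, where 1.44% of all genes were called. Of 10 somite markers Meox2 fell by 0.50 (log2, limma adjusted p = 0.0117) with the call held in 20 of 22 settings, and Uncx fell by 0.88 (limma adjusted p = 0.0148), also in 20 of 22, both homeobox genes outside the Hox clusters. The other 8 were not called, among them Meox1 at -0.94 (limma adjusted p = 0.0517), whose groups did not overlap. Over the list 6 were below 0 and 4 above, with a median of -0.04. Of 8 measured neuronal markers Dcx, a microtubule protein of young neurons, fell by 0.93 (limma adjusted p = 0.0384), a call held in 10 of 22 settings, and the median of the list was -0.33. Their part in the Hox values was not tested.

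In the tissue's own list Ret, the receptor for GDNF on the nephric duct, rose by 0.41 (limma adjusted p = 0.0220), a call held in 15 of 22 settings, and Six2 fell by 0.48 as given above. Lhx1 (0.42, limma adjusted p = 0.0577) and Gata3 (0.25, limma adjusted p = 0.0845) were higher without overlap and not called. Eya1, given above, was lower without overlap and not called. Of the 11 measured genes 6 were below 0 and 5 above, with a median of -0.02. No gene was called among 9 neural tube, 8 limb bud, 8 hindgut and cloaca, 8 tail bud, 9 erythroid and 8 endothelial markers, with medians of 0.08, 0.06, 0.04, 0.09, -0.22 and 0.06.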
